A study of Homo sapiens with 8 samples.

Results

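A set of 10 genes that govern the passage from G1 into S phase was followed across the EZH2 guide RNA experiment in HSC-5 cells: the CDK inhibitors CDKN1A, CDKN1B, CDKN1C, CDKN2A, CDKN2B, CDKN2C and CDKN2D, the pocket protein gene RB1, the transcription factor gene E2F1 and the D-type cyclin gene CCND1. They were chosen by symbol as members of this pathway, all 10 were found among the 20294 genes of the count table, and all 10 passed the filter on low counts, which kept 13124 genes. HSC-5 is an established human line of cutaneous squamous cell carcinoma. All 8 libraries came from cells that stably carried Cas9. The 2 Control libraries came from cells with an empty vector, 3 libraries came from cells with the guide RNA sgEZH2-1, and 3 came from cells with the guide RNA sgEZH2-2. The culture medium was DMEM with serum, and cells that had taken up the guide were selected with G418. The labels name no clonal isolation, and RNA was taken from the whole selected culture. In such bulk samples, fewer cells with a transcript and less of it per cell cannot be told apart. Nothing in the labels says that libraries of 1 group came from separate cultures, so the p-values measure the spread between these libraries, which may be technical.

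Polycomb repressive complex 2, of which EZH2 is the enzyme, methylates lysine 27 of histone H3. In many cell types this mark covers the chromosome 9 locus that holds CDKN2A and CDKN2B, and loss of Polycomb repression is a known route to expression of these inhibitors. In the pathway itself, cyclin D with CDK4 or CDK6 phosphorylates RB1, which then releases E2F factors to switch on genes of DNA replication. The INK4 proteins (from CDKN2A, CDKN2B, CDKN2C and CDKN2D) bind CDK4 and CDK6, whereas the CIP/KIP proteins (from CDKN1A, CDKN1B and CDKN1C) bind cyclin-CDK complexes more broadly. CDKN2A also encodes ARF from a separate first exon and another reading frame.

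The sequences just upstream of the 3 transcription starts of the chromosome 9 locus and of E2F1 are shown, because the locus is the textbook Polycomb target among these genes and E2F1 is the textbook target of its own product. Each is the 250 bases before a RefSeq start (GRCh38.p14), read 5′ to 3′ on the strand of the gene. The windows are chr9:22009306-22009555 (minus strand) for CDKN2B, chr9:21995325-21995574 (minus strand) for the upstream start of CDKN2A, which makes ARF, chr9:21974858-21975107 (minus strand) for the downstream start of CDKN2A, which makes p16, and chr20:33686386-33686635 (minus strand) for E2F1. Capitals mark matches, on either strand, to the GC box GGGCGG or to 4 forms of the E2F motif (TTTCCCGC, TTTGGCGC, TTTCGCGC and TTTGCCGC).
CDKN2B: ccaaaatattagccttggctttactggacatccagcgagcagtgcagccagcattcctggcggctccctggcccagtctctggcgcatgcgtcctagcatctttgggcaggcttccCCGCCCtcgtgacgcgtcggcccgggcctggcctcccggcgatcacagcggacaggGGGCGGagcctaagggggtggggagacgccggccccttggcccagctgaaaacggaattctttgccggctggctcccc
CDKN2A, ARF start: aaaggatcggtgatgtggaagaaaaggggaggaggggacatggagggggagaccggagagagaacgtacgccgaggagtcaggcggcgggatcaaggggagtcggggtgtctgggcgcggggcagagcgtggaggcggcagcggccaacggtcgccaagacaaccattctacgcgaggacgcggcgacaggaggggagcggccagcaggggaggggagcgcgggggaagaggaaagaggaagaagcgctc
CDKN2A, p16 start: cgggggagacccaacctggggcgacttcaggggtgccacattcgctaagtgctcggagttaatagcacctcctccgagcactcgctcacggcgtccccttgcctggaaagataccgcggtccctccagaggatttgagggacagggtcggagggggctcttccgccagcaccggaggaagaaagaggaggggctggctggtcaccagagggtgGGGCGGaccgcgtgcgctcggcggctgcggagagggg
E2F1: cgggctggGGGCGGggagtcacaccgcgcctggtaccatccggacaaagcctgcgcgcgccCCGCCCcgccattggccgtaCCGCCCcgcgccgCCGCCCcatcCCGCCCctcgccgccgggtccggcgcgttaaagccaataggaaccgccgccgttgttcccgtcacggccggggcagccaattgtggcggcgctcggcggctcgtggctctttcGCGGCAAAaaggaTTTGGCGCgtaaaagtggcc
The E2F1 window held 2 E2F matches, whose first bases lay 33 and 20 bases before the start and which face opposite ways, and 5 GC boxes. An E2F match occurred in 2.79% and a GC box in 42.6% of the 35116 RefSeq windows of this length. With 38 CpG dinucleotides the E2F1 window had more than 96.7% of those windows, whose median was 11. The CDKN2B window held 2 GC boxes and 18 CpG, the p16 window 1 GC box and 20 CpG, and the ARF window no GC box and 24 CpG. None of these 3 windows of the INK4 locus held any of the 4 E2F forms, which says only that these letters are not in these windows. Windows were found for 8 of the 10 members (11 windows in all). The RB1 window lies inside the gene, far downstream of its first exon, so the region before that exon was not searched. Of the other 7 members with windows, E2F1 was the one with an E2F match.

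The libraries held 12.6 M to 15.5 M counts each. Levels are given in CPM, which puts all libraries on the same total after scaling by the trimmed mean of M values, and changes as log2 fold changes with their standard error (SE). Adjusted p-values come from the quasi-likelihood F test of edgeR with Benjamini-Hochberg adjustment over all 13124 genes, and a gene is called at an adjusted p of at most 0.05. The comparisons of the 2 guides with Control share the same 2 Control libraries. The targeted gene EZH2 was at 82.7 and 84.1 CPM in Control, at 56.4, 56.3 and 48.0 CPM with sgEZH2-1, and at 73.9, 67.6 and 65.1 CPM with sgEZH2-2. It fell by 0.64 on the log2 scale with sgEZH2-1 (SE 0.08, adjusted p = 0.000529), while the value with sgEZH2-2 was -0.28 (SE 0.08, adjusted p = 0.0699). A transcript level does not measure EZH2 protein. Summed CPM of 6 keratinocyte markers ran from 2323 to 2887 over the 8 libraries, of which KRT5 alone made up 1551 to 2106 CPM. KRT14, also among the 6, was nearly absent, with 3 to 21 counts per library. Single markers moved in opposite directions: with sgEZH2-1, TP63 fell by 1.01 on the log2 scale (adjusted p = 1.27e-05) while KRT17 (0.82, adjusted p = 0.00581) and KRT6A (0.38, adjusted p = 0.0131) rose, and with sgEZH2-2 KRT5 fell by 0.36 (adjusted p = 0.00727). Of 6 fibroblast markers, COL1A1 alone passed the filter, at 5.93 to 7.24 CPM in Control, 4.25 to 8.33 with sgEZH2-1 and 10.8 to 13.8 with sgEZH2-2, and the other 5 (DCN, LUM, PDGFRA, PDGFRB and THY1) had 0 to 6 counts per library. The part of these markers in the results was not tested. Sums of leukocyte markers were 11.6 to 18.2 CPM (2 of 6 markers at 0 in every library), of endothelial markers 1.98 to 4.73 CPM (1 of 6 at 0) and of melanocyte markers 27.9 to 33.1 CPM (2 of 6 at 0). Most of the leukocyte sum was CD68, at 9.36 to 15.1 CPM, and most of the melanocyte sum was MITF, at 24.5 to 30.6 CPM.

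With sgEZH2-1, 2 of the 10 genes were called: CCND1 and CDKN2B, both higher than in Control. Over all genes tested, 11.3% were called higher and 9.51% lower in that comparison, so 2 of 10 members is not set apart from the background. With sgEZH2-2 none of the 10 was called, beside 6.18% of all genes called higher and 2.5% called lower. Unadjusted p-values were under 0.05 for 5 members with sgEZH2-1 and for 2 with sgEZH2-2, all of them higher than Control, and DESeq2 called 1 and 0 members. The share of all genes under the unadjusted threshold, or called by DESeq2, is not given here. Counts of these 2 kinds, here and below, thus have no background to be read against. The same CCND1 and CDKN2B were higher with sgEZH2-1 than with sgEZH2-2, where 10.4% of all genes were called higher and 11.5% lower. When the 6 guide libraries were pooled against Control, none was called by edgeR or DESeq2, with 3.76% of all genes called higher and 0.594% lower, and 2 members had an unadjusted p under 0.05. The median log2 fold change of the 10 members was 0.18 with sgEZH2-1 and 0.12 with sgEZH2-2, beside -0.01 and 0.00 over all genes tested.

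**Figure D1:**
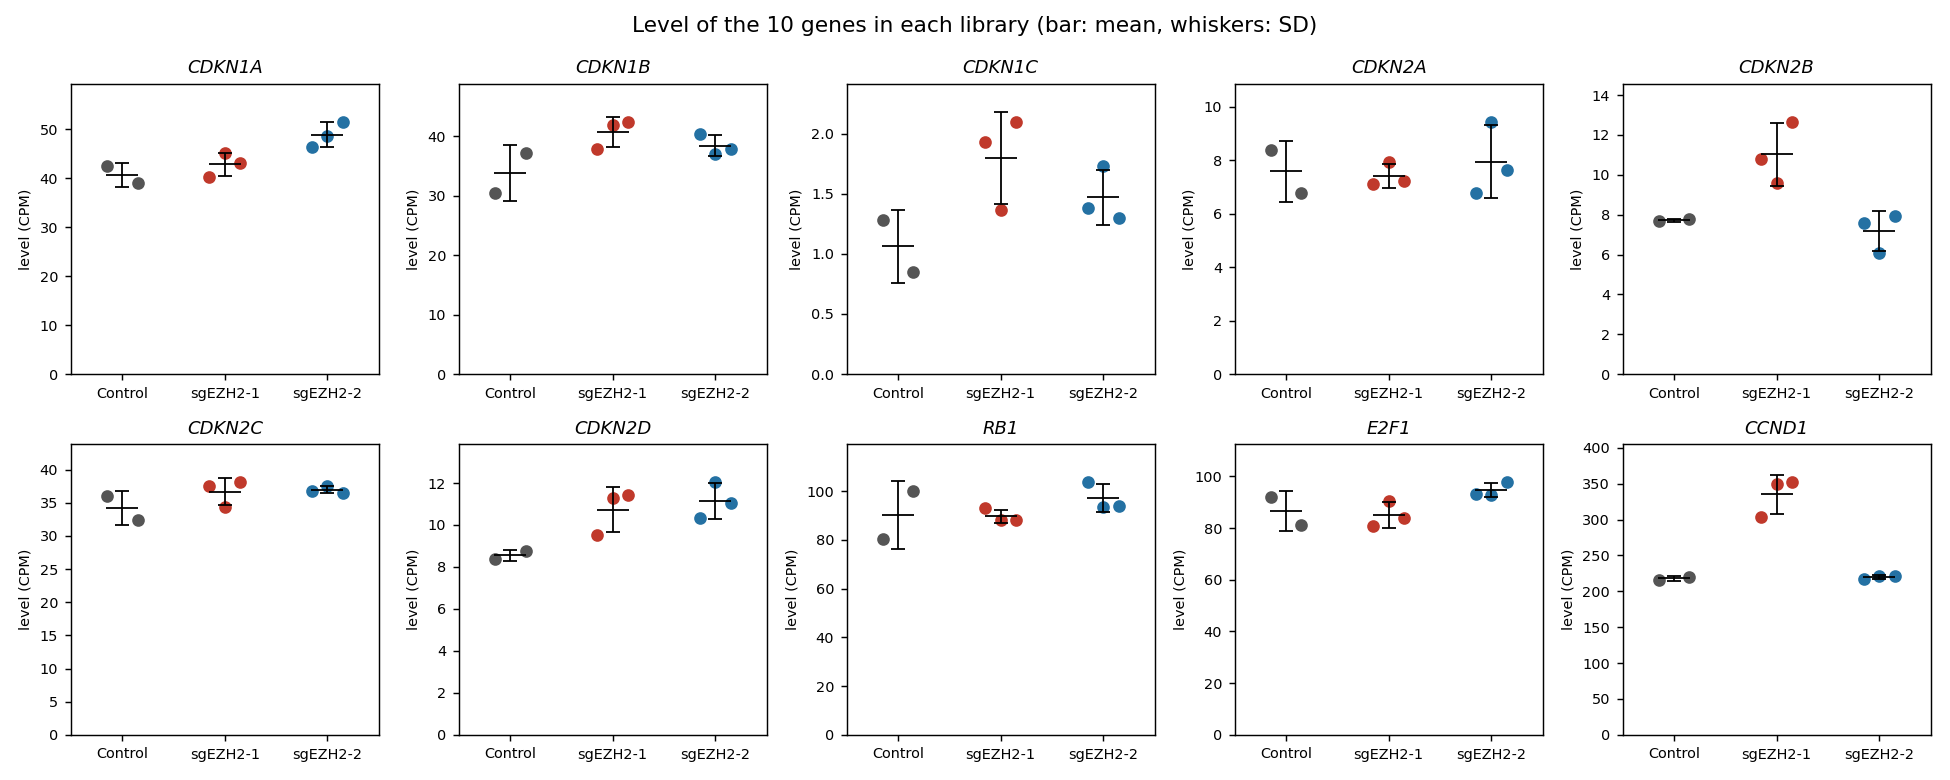
CPM (vertical axis, linear from 0) of the 10 genes in the 2 Control, 3 sgEZH2-1 and 3 sgEZH2-2 libraries; each point is a library, bars are means and whiskers SD. With sgEZH2-1, CCND1 (303.7 to 351.9 CPM) and CDKN2B (9.58 to 12.7 CPM) lie above all libraries of the other groups.

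Of the INK4 genes, CDKN2B, whose product p15 inhibits CDK4 and CDK6 and is a known target of TGF-beta signalling, changed with sgEZH2-1. It lies on chr9:22002903-22009363 (minus strand, GRCh38). Its level was 7.67 and 7.76 CPM in Control, 10.8, 9.58 and 12.7 CPM with sgEZH2-1, and 7.59, 6.06 and 7.93 CPM with sgEZH2-2. All 3 sgEZH2-1 libraries lay above every other library, while those of sgEZH2-2 overlapped Control. The log2 fold change was 0.51 with sgEZH2-1 (SE 0.16, 95% interval 0.16 to 0.86, adjusted p = 0.0433) and -0.10 with sgEZH2-2 (SE 0.16, interval -0.46 to 0.26, adjusted p = 0.779). The difference between the guides was 0.61 (SE 0.14, adjusted p = 0.0133). These values rest on 77 to 181 counts per library. The call against Control lay close to the threshold: the adjusted p was 0.076 by DESeq2 and 0.0568 when only sgEZH2-1 and Control libraries were fitted. It was 0.174 and 0.122 without the first and the second Control library, 0.0588 and 0.11 without the first and the third sgEZH2-1 library, and 0.0579 without the third sgEZH2-2 library, with log2 fold changes of 0.41 to 0.62 over all 8 omissions. The difference between guides lost its call without the second sgEZH2-2 library (0.51, adjusted p = 0.0571).

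CDKN2A, which encodes the CDK4 and CDK6 inhibitor p16 and the unrelated protein ARF, was not called in any comparison. It lies on chr9:21967753-21995301 (minus strand), and its count pools the p16 and ARF transcripts. Its level was 8.38 and 6.78 CPM in Control, 7.11, 7.94 and 7.21 CPM with sgEZH2-1, and 6.77, 9.44 and 7.63 CPM with sgEZH2-2. The groups overlapped throughout. The change on the log2 scale was -0.03 with sgEZH2-1 (SE 0.17, interval -0.40 to 0.34, adjusted p = 0.929) and 0.07 with sgEZH2-2 (SE 0.17, interval -0.30 to 0.44, adjusted p = 0.863). The intervals reached no further than 0.44 from 0 in either direction. Of its exon bases, 341 (7.88%) are shared with CDKN2B-AS1 on the opposite strand. Whether counting used strand is not given in the sources used here, so reads of these 2 genes may be mixed.

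CDKN2C, which encodes p18, lies on chr1:50960745-50974633 (plus strand). It was at 36.1 and 32.4 CPM in Control, 37.5, 34.3 and 38.1 CPM with sgEZH2-1, and 36.8, 37.6 and 36.5 CPM with sgEZH2-2. The sgEZH2-2 libraries all lay above Control, but by less than the difference between the Control libraries. Log2 fold changes were 0.10 (interval -0.08 to 0.27, adjusted p = 0.41) and 0.11 (interval -0.06 to 0.29, adjusted p = 0.452). CDKN2D, which encodes p19, lies on chr19:10566462-10569059 (minus strand). It was at 8.38 and 8.74 CPM in Control, 9.50, 11.3 and 11.4 CPM with sgEZH2-1, and 10.4, 12.04 and 11.1 CPM with sgEZH2-2. All 6 guide libraries lay above both Control libraries. Its log2 fold change was 0.33 with sgEZH2-1 (SE 0.13, adjusted p = 0.0954) and 0.38 with sgEZH2-2 (SE 0.13, adjusted p = 0.0998), and the guides differed by -0.05 (interval -0.30 to 0.20). The pooled value was 0.35 (interval 0.08 to 0.63, adjusted p = 0.172), so CDKN2D was not called in any of the 4 comparisons. Without the first sgEZH2-1 library, its value with sgEZH2-1 was 0.41 and was called (adjusted p = 0.0475).

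Of the CIP/KIP genes, none was called. CDKN1A, which encodes p21, an inhibitor of CDK2 complexes, lies on chr6:36676460-36687339 (plus strand). It was at 42.4 and 39.0 CPM in Control, 40.3, 45.1 and 43.1 CPM with sgEZH2-1, and 46.4, 48.7 and 51.6 CPM with sgEZH2-2. Every sgEZH2-2 library lay above every other library. The log2 fold change with sgEZH2-2 was 0.26 (SE 0.08, interval 0.09 to 0.44), with an adjusted p of 0.069. With sgEZH2-1 it was 0.07 (SE 0.08, adjusted p = 0.548), and the difference between the guides was -0.19 (SE 0.07, adjusted p = 0.0796). The value with sgEZH2-2 was called when library totals alone were used for scaling (0.29, adjusted p = 0.0404). CDKN1A shares 146 exon bases (4.79%) with DINOL, a non-coding gene on the opposite strand.

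CDKN1B, which encodes p27, lies on chr12:12715058-12722371 (plus strand). Its level was 30.4 and 37.1 CPM in Control, 37.8, 41.9 and 42.4 CPM with sgEZH2-1, and 40.4, 37.0 and 37.8 CPM with sgEZH2-2. The first Control library was the lowest of all 8, and the second lay just below the sgEZH2-1 libraries and within those of sgEZH2-2. On the log2 scale the change was 0.27 with sgEZH2-1 (SE 0.10, adjusted p = 0.0747) and 0.19 with sgEZH2-2 (SE 0.10, adjusted p = 0.296). With sgEZH2-1 it was called without the second Control library (0.42, adjusted p = 0.0244) and without the first sgEZH2-1 library (0.32, adjusted p = 0.0483). CDKN1C, which encodes p57 and is an imprinted gene, lies on chr11:2883213-2885773 (minus strand). It had 18 and 13 counts in the Control libraries, 25, 20 and 30 with sgEZH2-1, and 20, 22 and 17 with sgEZH2-2. These are 1.28 and 0.848 CPM in Control, 1.93, 1.37 and 2.10 CPM with sgEZH2-1, and 1.38, 1.73 and 1.30 CPM with sgEZH2-2. All 6 guide libraries lay above both Control libraries, the closest being 1.30 against 1.28 CPM. The log2 fold change was 0.76 with sgEZH2-1 (interval 0.06 to 1.46, adjusted p = 0.118) and 0.47 with sgEZH2-2 (interval -0.25 to 1.19, adjusted p = 0.445). These values rest on 13 to 30 counts per library, the fewest of the 10 members.

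Counted without a model, members lay wholly above Control in 5 cases with sgEZH2-1 (CDKN1B, CDKN1C, CDKN2B, CDKN2D and CCND1) and in 5 with sgEZH2-2 (CDKN1A, CDKN1C, CDKN2C, CDKN2D and E2F1). No member lay wholly below Control with either guide. Over all genes tested, 23.7% lay wholly above and 24.2% wholly below Control with sgEZH2-1, and 19.3% above and 20.5% below with sgEZH2-2. All 6 guide libraries lay above both Control libraries for CDKN1C and CDKN2D, beside 10.2% of all genes, and below them for no member, beside 9.77%. Between the guides, CDKN2B and CCND1 lay wholly higher with sgEZH2-1, beside 21% of all genes. CDKN1A, RB1 and E2F1 lay wholly lower, beside 21.2%. The values per kilobase of exon, summed over the 4 INK4 genes, were 19.7 ± 0.859 CPM per kb in Control (SD, n = 2), 22.6 ± 1.08 with sgEZH2-1 (SD, n = 3) and 22.2 ± 0.804 with sgEZH2-2 (SD, n = 3). The CIP/KIP sums were 25.8 ± 0.775, 29.3 ± 1.55 and 30.3 ± 0.524 CPM per kb in the same order. CDKN2C and CDKN2D made up most of the INK4 sum, with Control means of 10.3 and 5.69 CPM per kb, beside 1.90 for CDKN2B and 1.75 for CDKN2A.

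**Figure D2:**
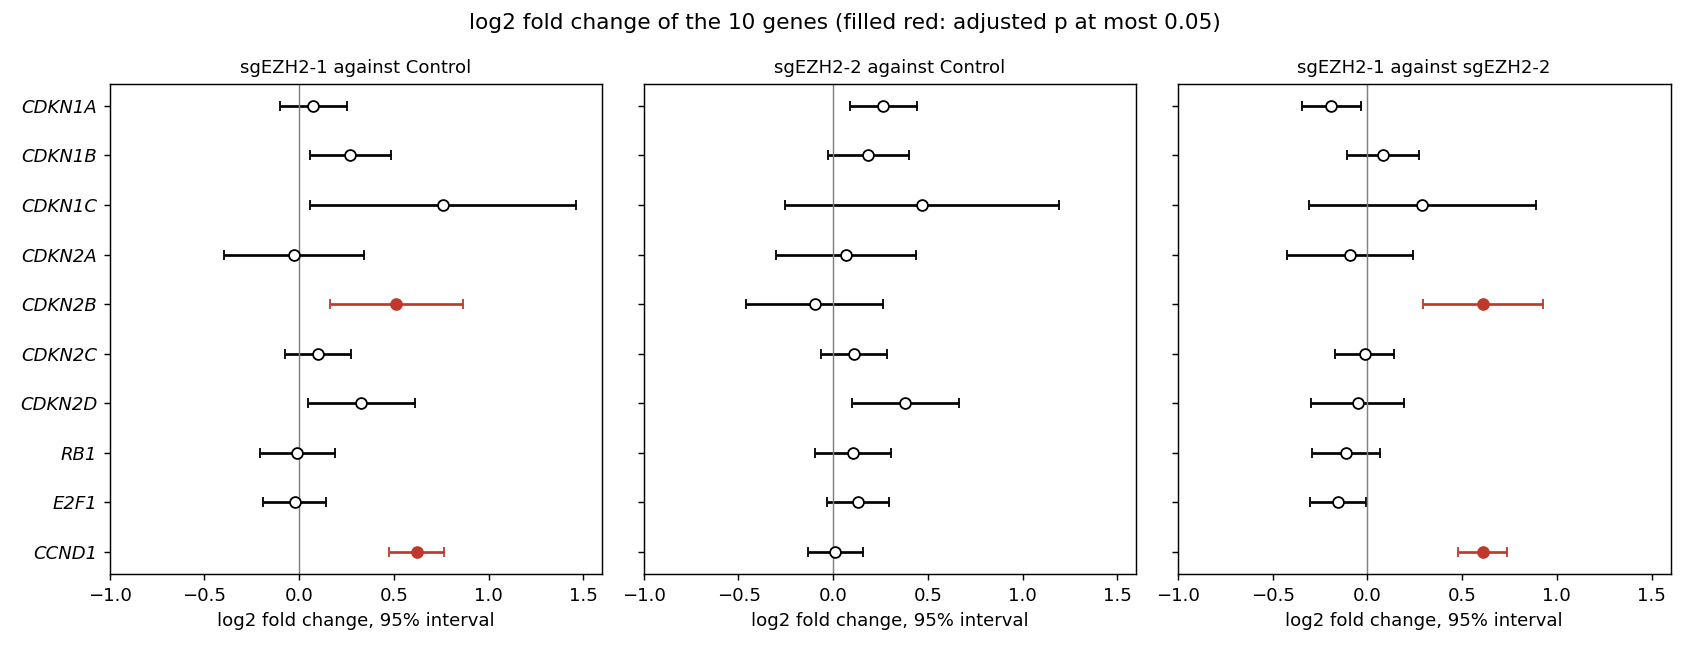
Log2 fold change (horizontal axis) of each of the 10 genes in 3 comparisons, with 95% intervals from the edgeR fit; filled red points have an adjusted p of at most 0.05. The red points are CCND1 and CDKN2B with sgEZH2-1 against Control and between the guides; the interval of CDKN1C is the widest.

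RB1, the pocket protein that holds E2F factors in check, lies on chr13:48303726-48599436 (plus strand). It was at 80.5 and 100.1 CPM in Control, 92.9, 88.2 and 88.3 CPM with sgEZH2-1, and 103.7, 93.5 and 94.1 CPM with sgEZH2-2. The Control libraries enclosed every sgEZH2-1 library. The change on the log2 scale was -0.01 with sgEZH2-1 (interval -0.21 to 0.19, adjusted p = 0.954) and 0.10 with sgEZH2-2 (interval -0.10 to 0.30, adjusted p = 0.549). E2F1, an activator of the E2F family, lies on chr20:33675683-33686404 (minus strand). It was at 91.9 and 81.1 CPM in Control, 80.6, 90.6 and 83.7 CPM with sgEZH2-1, and 93.1, 92.9 and 97.7 CPM with sgEZH2-2. The sgEZH2-2 libraries lay above all others, the closest being 92.9 against 91.9 CPM. Its log2 fold change was -0.02 with sgEZH2-1 (interval -0.19 to 0.14, adjusted p = 0.855) and 0.13 with sgEZH2-2 (interval -0.03 to 0.29, adjusted p = 0.343), and the difference between the guides was -0.15 (adjusted p = 0.121). Neither RB1 nor E2F1 was called in any of the 4 comparisons, and their intervals against Control reached no further than 0.30 from 0 on the log2 scale.

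CCND1, which encodes cyclin D1, the activating partner of CDK4 and CDK6, rose with sgEZH2-1. It lies on chr11:69641087-69654474 (plus strand). Its level was 215.8 and 220.5 CPM in Control, 303.7, 349.9 and 351.9 CPM with sgEZH2-1, and 216.6, 221.9 and 221.1 CPM with sgEZH2-2. The sgEZH2-1 libraries stood apart from the rest, and those of sgEZH2-2 overlapped Control. On the log2 scale the change was 0.62 with sgEZH2-1 (SE 0.07, interval 0.47 to 0.77, adjusted p = 0.000152) and 0.01 with sgEZH2-2 (SE 0.07, interval -0.13 to 0.16, adjusted p = 0.947). The difference between the guides was 0.61 (SE 0.06, interval 0.48 to 0.74, adjusted p = 0.000114). In the pooled comparison the value was 0.35 (interval -0.11 to 0.81, adjusted p = 0.458), a fit in which the difference between the guides counts as spread. When the mean of both guides was tested in the fit with 3 groups, the value was 0.32 and was called (adjusted p = 0.00636). CCND1 shares 497 exon bases (10.3%) with LTO1 on the opposite strand. LTO1 gave a log2 fold change of -0.09 with sgEZH2-1 (adjusted p = 0.647).

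Of the other D-type cyclin genes, CCND2 (chr12:4273772-4305350, plus strand) rose with both guides and CCND3 with neither. CCND2 was at 4.55 and 3 CPM in Control, 29.4, 32.4 and 30.5 CPM with sgEZH2-1, and 19.2, 17.5 and 18.5 CPM with sgEZH2-2. The 3 groups were separate. Its log2 fold change was 3.03 with sgEZH2-1 (SE 0.14, adjusted p = 1.41e-06) and 2.29 with sgEZH2-2 (SE 0.15, adjusted p = 1.75e-05), and the guides differed by 0.74 (adjusted p = 0.000876). Per kilobase of exon, CCND2 went from 0.527 ± 0.153 CPM per kb in Control to 4.30 ± 0.213 with sgEZH2-1 and 2.57 ± 0.121 with sgEZH2-2, against 45.2 ± 0.70, 69.4 ± 5.64 and 45.5 ± 0.599 for CCND1 (SD, n = 2, 3 and 3). CCND3 was at 11.4, 11.9 and 12.3 CPM per kb in the same order. By the length of its longest transcript CCND3 was at 27.6 CPM per kb in Control, so its level and sums that hold it depend on the length used. On the log2 scale CCND3 differed from Control by 0.06 with sgEZH2-1 (adjusted p = 0.571) and by 0.11 with sgEZH2-2 (adjusted p = 0.428). The summed level of the 3 D-type cyclin genes was 57.1 ± 0.407 CPM per kb in Control, 85.6 ± 6.31 with sgEZH2-1 and 60.3 ± 1.27 with sgEZH2-2. CCND1 made up most of that sum in every group.

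**Figure D3:**
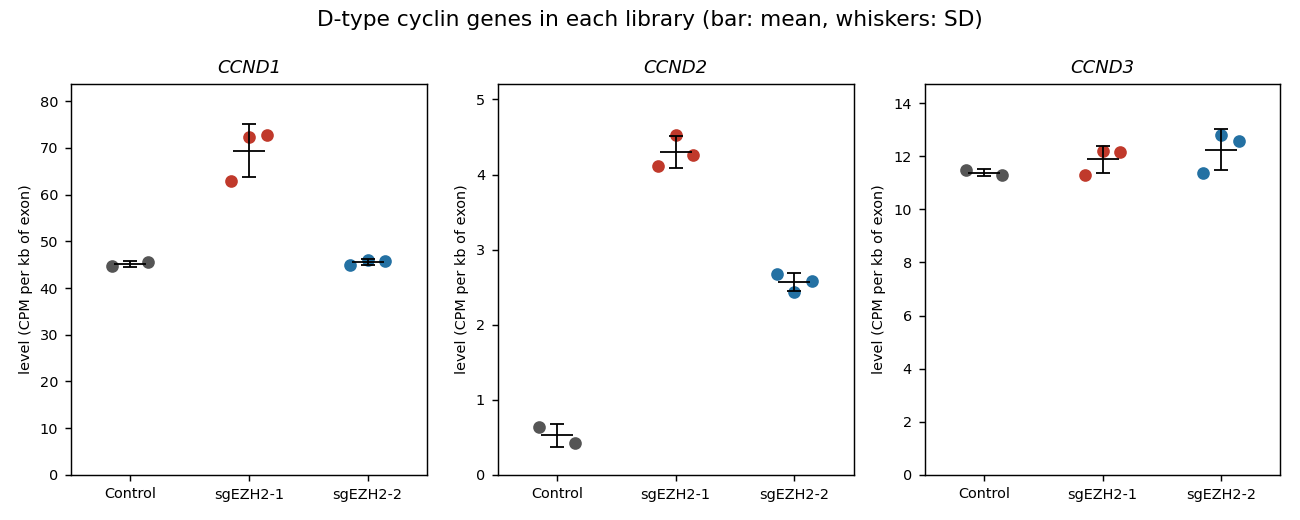
Level of CCND1, CCND2 and CCND3 (vertical axes, CPM per kb of exon, linear from 0, with a scale of its own for each gene) in each library; bars are means and whiskers SD. CCND1 is high with sgEZH2-1 alone, CCND2 is high with both guides, and CCND3 lies between 11.3 and 12.8 CPM per kb in all 8 libraries.

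Compared per kilobase of merged exon, the levels of the 10 genes in the 8 libraries ran in the order CCND1, E2F1, CDKN1A, RB1, CDKN1B, CDKN2C, CDKN2D, CDKN2B, CDKN2A and CDKN1C. Control means were 45.2 CPM per kb for CCND1, 34.6 for E2F1, 13.3 for CDKN1A, 14.0 for RB1, 12.01 for CDKN1B and 10.3 for CDKN2C. They were 5.69 for CDKN2D, 1.90 for CDKN2B, 1.75 for CDKN2A and 0.429 for CDKN1C. The ranges over the 8 libraries overlapped between CDKN1A and RB1, RB1 and CDKN1B, CDKN1B and CDKN2C, and CDKN2B and CDKN2A, so these neighbours in the order are not separated. The ranges of all other neighbours were apart. For CDKN2A the level depends on the length used, since the merged exons span 4329 bases and the longest transcript 1283: by the longest transcript it was 5.91 CPM per kb in Control.

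The genes whose profile over the 8 libraries was most like that of CDKN2B and CCND1 were sought among 10634 other genes of at least 5 CPM on average, by the root mean square difference of centred log2 CPM. For CDKN2B they were LRATD1 (0.0605), ZNF699 (0.0968) and CPPED1 (0.0989). For CCND1 they were COBL (0.0476), EFEMP1 (0.0661) and DSE (0.0719). Differences between the guides for these 6 genes were 0.50, 0.51, 0.60, 0.54, 0.65 and 0.63 on the log2 scale, as their choice by likeness fixes.

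Of the listed and tested neighbours around the locus of CDKN2A and CDKN2B, MTAP alone had its start within 250 kb of the start of either gene. The others, ELAVL2 among them, started further away. In all, 6 of 8 listed neighbours were tested. With sgEZH2-1, 1 was called higher: ELAVL2, which encodes an RNA-binding protein of neurons (0.56, SE 0.12, adjusted p = 0.00789). Without the first Control library it was not called (adjusted p = 0.0763). With sgEZH2-2 none was called by edgeR or DESeq2, and 0 had an unadjusted p under 0.05. MTAP, the nearest of these to the locus, which encodes an enzyme of methionine salvage, was at 109.4 and 116.7 CPM in Control, 123.3, 119.7 and 120.3 CPM with sgEZH2-1, and 128.9, 110.8 and 113.1 CPM with sgEZH2-2. It changed by 0.10 with sgEZH2-1 (adjusted p = 0.364) and by 0.06 with sgEZH2-2 (adjusted p = 0.697), neither of them a call. CDKN2B was thus called higher with sgEZH2-1 while CDKN2A and MTAP, both at lower coordinates beside it, were not. IFNE, KLHL9 and MLLT3 were not called against Control with either guide, nor was DMRTA1, which had 3 to 17 counts per library. HACD4, with 1 to 8 counts per library, did not pass the filter. Beside CDKN1C, 8 neighbours were tested. NAP1L4, a histone chaperone gene, fell by 0.21 with sgEZH2-1 (adjusted p = 0.0269). KCNQ1, a potassium channel gene, rose by 1.75 (adjusted p = 0.00186) and OSBPL5, a lipid transfer gene, by 0.72 (adjusted p = 0.0193) with sgEZH2-2. The starts of KCNQ1 and OSBPL5 lay more than 250 kb from that of CDKN1C. NAP1L4 lost its call without the first Control library or the second or the third sgEZH2-1 library and when only sgEZH2-1 and Control libraries were fitted (adjusted p up to 0.268). OSBPL5 lost its call without either Control library or the second or the third sgEZH2-2 library (adjusted p up to 0.129). Within 250 kb of the 10 members, a window chosen after values were seen, 47 neighbour pairs were tested. Of these, 4 were called higher and 7 lower with sgEZH2-1, beside 11.3% and 9.51% of all genes tested. With sgEZH2-2, 0 were called either way, beside 6.18% called higher and 2.5% lower. These pairs count CDKN2B as a neighbour of CDKN2A.

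Among genes upstream of the CIP/KIP inhibitors, 3 of 15 rose and 3 fell with sgEZH2-1, beside 11.3% and 9.51% of all genes tested. With sgEZH2-2, 3 rose and 1 fell, beside 6.18% and 2.5%. TGFBR1, a receptor of TGF-beta, rose with both guides (1.06, SE 0.10, adjusted p = 8.55e-05, and 0.78, SE 0.10, adjusted p = 0.00121). MYC, a known repressor of CDKN1A and CDKN2B and an inducer of growth genes, was at 177.1 and 161.3 CPM in Control, 90.4, 107.3 and 118.8 CPM with sgEZH2-1, and 182.4, 186.0 and 190.7 CPM with sgEZH2-2. It fell with sgEZH2-1 (-0.68, SE 0.09, adjusted p = 0.000748), and with sgEZH2-2 the value was 0.14 (adjusted p = 0.433). KLF4, a known activator of CDKN1A in epithelia, rose with sgEZH2-1 (0.88, SE 0.09, adjusted p = 0.000139) and FOXO1, a known activator of CDKN1B, fell (-0.52, SE 0.10, adjusted p = 0.00502). CDKN1A and CDKN1B were not called in that comparison. With sgEZH2-2, KLF4 was at 0.33 (adjusted p = 0.0583) and FOXO1 at -0.07 (adjusted p = 0.748). Of the counts with sgEZH2-2, the 3 that rose became 1 without the first Control library, and the 1 that fell was lost in 7 of the 8 omissions of a library.

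Among 17 known regulators of the INK4 locus, 4 rose and 1 fell with sgEZH2-1, beside 11.3% and 9.51% of all genes tested. With sgEZH2-2, 2 rose, beside 6.18%. RNF2, the catalytic subunit of Polycomb repressive complex 1, rose with both guides (0.83, SE 0.13, adjusted p = 0.0014, and 0.57, SE 0.13, adjusted p = 0.0224). BMI1, another subunit of that complex and a repressor of the locus, rose with sgEZH2-1 (1.36, SE 0.23, adjusted p = 0.00229), although its Control libraries lay far apart, at 22.2 and 45.2 CPM. TBX3, a repressor of CDKN2A, rose with sgEZH2-1 from 2.84 and 2.15 CPM in Control to 6.26, 5.13 and 5.74 CPM (1.19, SE 0.19, adjusted p = 0.00173). ID1, an inhibitor of ETS and helix-loop-helix factors, rose with sgEZH2-2 (0.62, SE 0.10, adjusted p = 0.00282). With the other guide these genes moved in the same direction without a call. BMI1 was at 0.71 (adjusted p = 0.0891) and TBX3 at 0.67 (adjusted p = 0.0654) with sgEZH2-2, and ID1 at 0.26 (adjusted p = 0.0806) with sgEZH2-1. With sgEZH2-2 the call of ID1 held in all 13 alternatives and that of RNF2 in 8 of 13. RNF2 lost that call without any 1 of the sgEZH2-2 libraries, and its values ranged from 0.50 to 0.66. The 1 gene that fell with sgEZH2-1 was not called without the first Control library. The count of 2 with sgEZH2-2 became 1 without the first Control library or any of the sgEZH2-2 libraries. Of 13 genes of the turnover of CDK inhibitors, CDC20 rose and DDB1, an adaptor of the CUL4 ubiquitin ligase, fell by 0.20 (adjusted p = 0.0143) with sgEZH2-1. These counts of 1 each way stand beside the same 11.3% and 9.51% of all genes. DDB1 lost its call without the first Control library or the second or the third sgEZH2-1 library and when only sgEZH2-1 and Control libraries were fitted (adjusted p up to 0.133). With sgEZH2-2 none was called by edgeR or DESeq2, and 4 had an unadjusted p under 0.05.

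Downstream of CDK4 and CDK6, genes of mitosis and of DNA replication were counted apart. Of 20 mitotic genes, 9 rose and 0 fell with sgEZH2-1, beside 11.3% and 9.51% of all genes tested, and their median was 0.16 on the log2 scale. CENPE, a motor protein of the kinetochore, rose by 0.36 (SE 0.07, adjusted p = 0.00645), CENPA, the histone of centromeres, by 0.32 (SE 0.08, adjusted p = 0.0135), CDC20, an activator of the anaphase-promoting complex, by 0.26 (SE 0.05, adjusted p = 0.00502) and BUB1, a checkpoint kinase, by 0.25 (SE 0.06, adjusted p = 0.0119). The count of 9 became 2 and 4 without the first and the second Control library and 6 without the second sgEZH2-1 library. Of 29 E2F targets of DNA replication, 2 rose and 3 fell with sgEZH2-1, with a median of -0.11. Beside the same 11.3% and 9.51% of all genes, these counts of called genes do not set the replication list apart. The median over all genes tested was -0.01. Unadjusted p-values were under 0.05 for 13 of the 29 replication genes, of which 2 were higher than Control, and for 12 of the 20 mitotic genes, all higher. The replicative helicase genes MCM2, MCM4 and MCM6 fell by 0.29 (SE 0.08, adjusted p = 0.0216), 0.15 (SE 0.04, adjusted p = 0.0272) and 0.19 (SE 0.06, adjusted p = 0.0369), and the clamp loader gene RFC3 rose by 0.38 (SE 0.09, adjusted p = 0.0149). MCM2 and RFC3 each kept this call in 12 of 13 alternatives, and MCM4 and MCM6 each in 5 of 13. The count of 3 called lower became 0 without the first Control library. It became 1 without the second or the third sgEZH2-1 library or the first or the third sgEZH2-2 library. The count of 2 called higher became 0 without the first Control library and 1 in 5 of the other 7 omissions. With sgEZH2-2, 0 of 20 mitotic and 0 of 29 replication genes were called by edgeR or DESeq2, and 3 and 2 had an unadjusted p under 0.05. Between the guides, 11 of 20 mitotic genes were higher and 8 of 29 replication genes lower with sgEZH2-1, beside 10.4% and 11.5% of all genes. The count of 11 became 6 without the second sgEZH2-1 or the third sgEZH2-2 library and 7 without the second sgEZH2-2 library, and the count of 8 became 4 without the second or the third sgEZH2-2 library.

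The RB and E2F family holds the other pocket proteins, E2F factors and their dimer partners. Of 11 genes beside RB1 and E2F1, 2 rose and 2 fell with sgEZH2-1, where 11.3% and 9.51% of all genes tested did. With sgEZH2-2, 1 rose, where 6.18% of all genes did. E2F8, an atypical repressor, rose with sgEZH2-1 (0.53, SE 0.08, adjusted p = 0.00133), as did E2F5, a partner of the pocket proteins (0.37, SE 0.11, adjusted p = 0.0461). E2F5 was also called with sgEZH2-2 (0.46, SE 0.11, adjusted p = 0.033). E2F5 kept its call in 4 of 13 alternatives with sgEZH2-1 (adjusted p up to 0.185) and in 8 of 13 with sgEZH2-2 (up to 0.148), and lost both calls by DESeq2 and without either Control library. The count of 1 with sgEZH2-2 thus became 0 in those fits, and also without the second or the third sgEZH2-2 library. TFDP2, a dimer partner of E2F factors, fell by 0.41 (SE 0.07, adjusted p = 0.00203) and RBL2, the pocket protein p130, by 0.32 (SE 0.08, adjusted p = 0.0219) with sgEZH2-1. Of 13 cyclins and CDKs of G1 and S phase, 3 rose with sgEZH2-1: CCND2, CCNE1 (0.38, SE 0.09, adjusted p = 0.0173) and CCNE2 (0.30, SE 0.09, adjusted p = 0.0395), which encode the E-type cyclins that activate CDK2. CCND2 was the 1 called with sgEZH2-2. Of all genes tested, 11.3% were called higher with sgEZH2-1 and 6.18% with sgEZH2-2. With sgEZH2-1, CCNE2 kept its call in 6 of 13 alternatives, CCNE1 in 11 and CCND2 in all 13. The count of 3 became 1 without the first Control or the second sgEZH2-1 library. In the RB and E2F family each count of 2 became 1 under several omissions, among them either Control library for the genes that rose and the second Control library for those that fell. Of the 6 DREAM and MuvB genes, none was called with sgEZH2-1 by edgeR, 1 was called by DESeq2 and 2 had an unadjusted p under 0.05. MYBL2, an activator of G2 genes, rose with sgEZH2-2 (0.40, SE 0.09, adjusted p = 0.0212), a call lost without the second Control library or the second or the third sgEZH2-2 library (adjusted p up to 0.147). With sgEZH2-1 the value of MYBL2 was 0.27 (adjusted p = 0.0576), and the guides differed by -0.13 (adjusted p = 0.253). LIN9, LIN37, LIN52, LIN54 and FOXM1 were not called against Control with either guide.

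**Figure D4:**
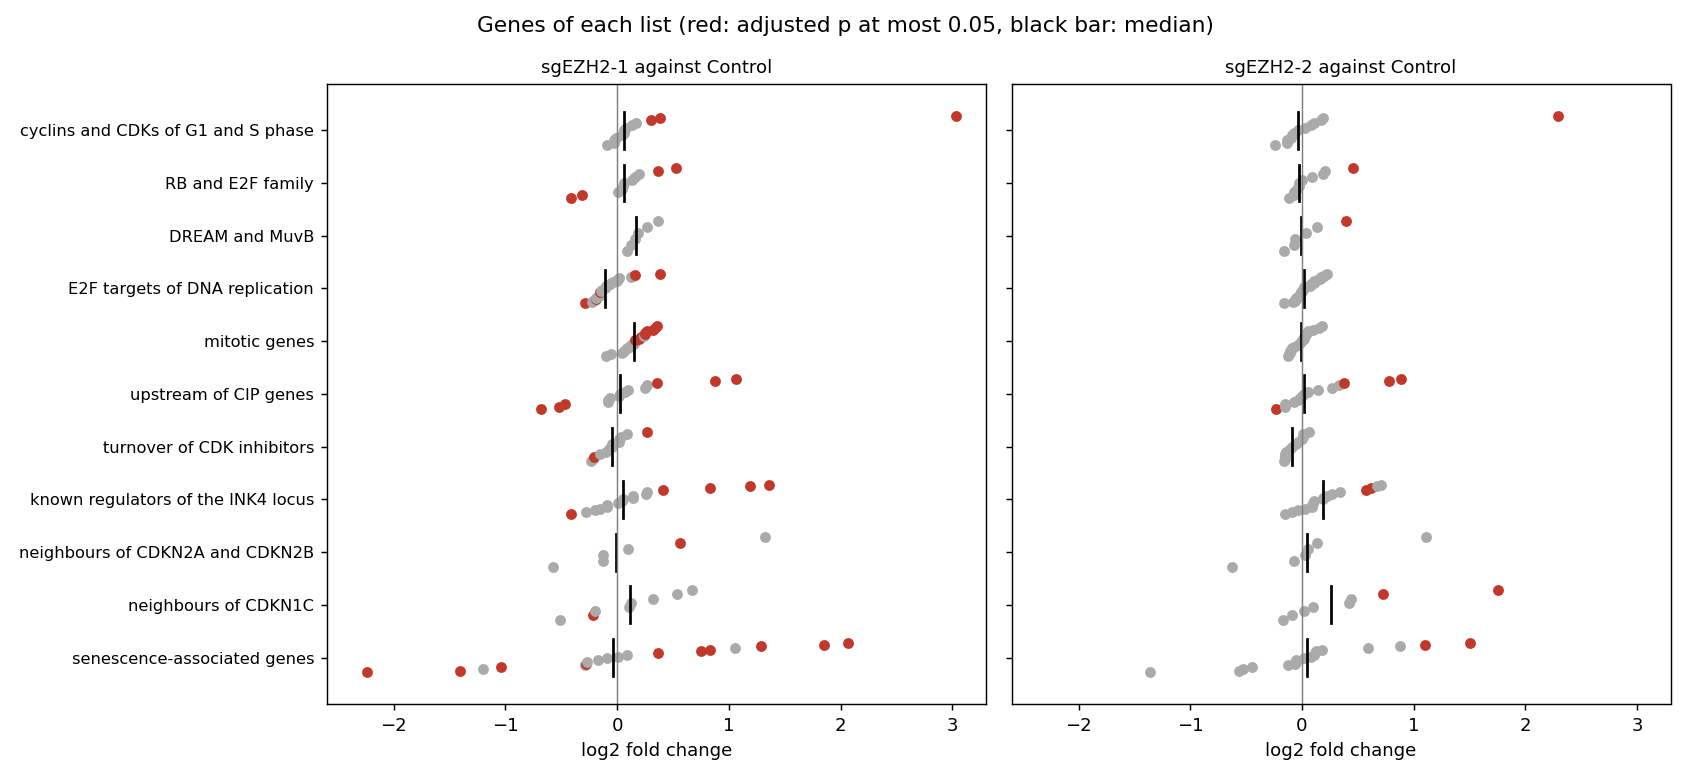
Log2 fold change (horizontal axis) of every tested gene of each list, 1 point per gene, for each guide against Control; red points have an adjusted p of at most 0.05 and black bars are list medians. Red points of the mitotic list lie to the right and those of the replication list on both sides with sgEZH2-1, and neither list has a red point with sgEZH2-2.

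Genes associated with senescence, the arrest in which CDKN2A and CDKN1A are best known to rise, did not move one way. Of 18 tested, 6 rose and 4 fell with sgEZH2-1, beside 11.3% and 9.51% of all genes tested. IGFBP3, a binding protein of insulin-like growth factors, was at 46.3 and 51.5 CPM in Control and 125.4, 114.5 and 117.8 CPM with sgEZH2-1, and rose by 1.28 (SE 0.07, adjusted p = 2.98e-06). The chemokine gene CXCL8 fell by 1.41 (SE 0.15, adjusted p = 0.000168) and the protease gene MMP10 by 2.24 (SE 0.25, adjusted p = 0.000228). With sgEZH2-2, DESeq2 called 3 of these genes, 2 of them higher, and 6 had an unadjusted p under 0.05 in the edgeR test, 3 of them higher. By adjusted p in edgeR, 2 rose and 0 fell with sgEZH2-2, beside 6.18% and 2.5% of all genes. Among the 2 was the collagenase gene MMP1 (1.10, SE 0.11, adjusted p = 0.000174). CXCL8 and MMP10 were at -0.13 (adjusted p = 0.66) and 0.12 (adjusted p = 0.806). The count of 2 became 1 without the first Control library.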

How the data were processed

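The authors deposited raw read counts, whole numbers per gene, for 8 poly(A) RNA libraries of HSC-5 cells, made with a stranded TruSeq kit per the labels' protocols. FastQC, STAR, DESeq and the genome build hg38 are named per the submitters' processing notes. Which versions, counting tool, annotation and strand option were used is not given in the sources used here. The series text states that 1 control was left out because it clustered apart, so the spread between the 2 controls used here may be understated. Columns name the group and no replicate number, so libraries are numbered by column order within a group, and 0 columns were unused. Replicate libraries all differed beyond sampling noise (chi-square per degree of freedom 2.12 to 9.42).

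Genes were filtered with filterByExpr (minimum count 10) and tested with the two-sided quasi-likelihood test of edgeR 4.0.16 (R 4.3.3) after scaling by the trimmed mean of M values. A fit of 3 groups gave the guide comparisons, and a fit of 2 levels the pooled one. SE and intervals at 95% were derived from the F statistic. DESeq2 1.42.0, other scalings, no filter, other sets of libraries and leaving out each library were the alternatives. The code was tested on simulated data. Gene models came from GENCODE release 29 (GRCh38), and promoter windows from RefSeq. The members and lists were chosen with earlier results of these data known. Named genes were the members, EZH2, up to 4 called genes per list, every gene of a list of at most 8, and 3 genes of like profile per called member. CCND3, LTO1, HACD4, single cell type markers and the neighbours within 250 kb were added after values were seen. Of the planned lists, 1 list and 1 gene of another list are not reported here, and the list counts are without them.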

Additional observations from a re-analysis of the deposited data

Results flagged for a closer look

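Differences between the guides (log2, sgEZH2-1 minus sgEZH2-2) passed an adjusted p of 0.05 in the edgeR test for the following named genes, and each is given as a value with no explanation. Of the members they were CDKN2B (0.61) and CCND1 (0.61), and the targeted gene EZH2 itself differed (-0.36). In the cyclin, RB and E2F families the genes were CCND2 (0.74), E2F8 (0.33), TFDP2 (-0.34) and RBL2 (-0.27), and of the DREAM and MuvB genes FOXM1 (0.25). Replication genes MCM2 (-0.40) and MCM6 (-0.27) were lower with sgEZH2-1, and mitotic genes CDC20 (0.35), CENPE (0.21), BUB1 (0.25) and CENPA (0.35) were higher. Upstream genes were TGFBR1 (0.28), KLF4 (0.55), MYC (-0.82) and FOXO1 (-0.45), and regulators of the INK4 locus were TBX3 (0.52), BMI1 (0.65) and ID1 (-0.36). Listed neighbours of the inhibitor loci, all with starts more than 250 kb away, were MLLT3 (-0.27), ELAVL2 (0.54) and KCNQ1 (-1.09). Senescence-associated genes were IGFBP3 (1.10), CXCL8 (-1.28), MMP1 (-1.39) and MMP10 (-2.36). Genes picked for a profile like that of a member differed by that choice: LRATD1 (0.50), ZNF699 (0.51), CPPED1 (0.60), COBL (0.54), EFEMP1 (0.65) and DSE (0.63). The differences of CENPE and TGFBR1 were each called in 5 of 13 alternatives, and those of TBX3 and MLLT3 in 6 of 13. COL1A1, the 1 fibroblast marker tested, was also lower with sgEZH2-1 than with sgEZH2-2 (-0.89, adjusted p = 0.0133), while the other 5 fibroblast markers had 0 to 6 counts per library, and its part in these differences was not tested.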

How the results depend on the processing

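No paired analysis was possible because the columns of the count table carry no replicate numbers. The 10 members and EZH2 were refitted in 4 comparisons under 13 alternatives each, and of 572 values 534 kept their direction and their side of the threshold, 8 lost a call, 7 gained one and 23 changed sign. All values that changed sign were uncalled. The members called with sgEZH2-1 numbered 2, 1 by DESeq2, 1 when only sgEZH2-1 and Control libraries were fitted, and 1 to 3 when each library was left out. With sgEZH2-2 the count of 0 became 1 when library totals alone were used, and between the guides the count of 2 ranged from 1 to 2 under omissions. In the pooled comparison the count of 0 became 1 when the mean of both guides was tested in the fit of 3 groups. The genes called over the whole table numbered 2726 with sgEZH2-1 (1373 to 2591 under omissions), 1139 with sgEZH2-2 (521 to 1365), 2874 between the guides (1521 to 2995) and 572 pooled (145 to 509, and 1612 with the mean of both guides). With sgEZH2-2, 71.2% of called genes were higher than Control, and 82% with library totals alone.

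The sign of RB1 with sgEZH2-1 changed with library totals alone (0.0049) and with only those 2 groups fitted (7.1e-05). Over the 8 omissions, values with sgEZH2-1 ranged from -0.18 to 0.13 for CDKN2A, -0.15 to 0.16 for RB1 and -0.11 to 0.073 for E2F1. With sgEZH2-2 they ranged from -0.082 to 0.23 for CDKN2A, -0.17 to 0.0084 for CDKN2B and -0.036 to 0.27 for RB1. Between the guides they ranged from -0.20 to 0.046 for CDKN2A, -0.041 to 0.033 for CDKN2C and -0.11 to 0.028 for CDKN2D. Pooled values ranged from -0.13 to 0.18 for CDKN2A, -0.093 to 0.21 for RB1 and -0.034 to 0.15 for E2F1. Of the other named genes called, 18 of 33 with sgEZH2-1, 5 of 9 with sgEZH2-2 and 21 of 31 between the guides were called in all 13 alternatives, and all kept their direction. The cause of these changes was not tested. Of the 10 members CDKN1C had the fewest counts, 13 to 30 per library.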
